A study of Homo sapiens with 6 samples.

Results

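Open chromatin after camptothecin (CPT) was compared between K562 cells that overexpress wild-type SLFN11 and K562 cells that carry the vector control. The members are the distinct intervals of the 2 ATAC-seq peak lists, 5562 in the wild-type SLFN11 list and 5806 in the vector list, of 48967 distinct intervals in the 6 lists of the series. An interval was called shared when it overlapped an interval of the other list by at least 1 bp, and a one-list site otherwise. Both cultures received 1000 nM CPT for 4 h. K562 is an established human chronic myeloid leukaemia line, which the labels list as a lymphoblast. The other 4 libraries, which were not used to define the sites, are vector, wild-type SLFN11 and E669Q SLFN11 cells with DMSO, for which the labels give no time, and E669Q SLFN11 cells with the same CPT treatment. The promoter that drives SLFN11 and whether a line is 1 clone are not given in the sources used here. Each group is 1 library, so no difference below has a replicate check and no test between the libraries was made. The intervals of shares and medians are at the 95% level and cover counting error only.

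SLFN11 is a Schlafen-family protein that is recruited to stressed replication forks, where it blocks replication and sensitises cells to DNA-damaging drugs. The E669Q protein carries a substitution in the ATPase domain. Camptothecin traps topoisomerase I on DNA, and the trapped enzyme turns into a lesion when a replication fork meets it. In ATAC-seq a transposase inserts adapters where DNA is not covered by nucleosomes, so a peak marks a promoter, an enhancer or another accessible stretch. The series title gives as its subject the remodelling of chromatin by SLFN11 when replication is stressed.

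The 2 libraries were of nearly equal depth. Recovered depth relative to the shallowest library of the series was 1.09 in both, and between 1.00 and 2.22 over all 6. The lowest local background was 28.07 fragments per 10 kb in the wild-type SLFN11 library and 28.00 in the vector library. Covered sequence was 1.55 and 1.59 Mb, median width 239 and 234 bp, and median summit pileup 9 fragments in both. The narrowest interval was 128 bp in the wild-type SLFN11 list and 116 bp in the vector list. The identity of the cells was not checked against marker genes, nor the SLFN11 locus examined, because no annotation of the build of the files was used here.

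After CPT more sites were shared between the wild-type SLFN11 and vector libraries than were private to either when any overlap counted. This did not hold under stricter matching of intervals, nor for the vector list with a −log10 q limit on both lists. The shared part was 39.5% of the wild-type SLFN11 and 37.8% of the vector list with a reciprocal overlap of 50%, and 47.7% and 45.7% with summits within 150 bp. With both lists limited to a −log10 q of at least 5 it was 54.1% and 46.03%. With that limit on the own list alone and the other list as deposited, it was 74.4% and 68.6%. At a fold of at least 5 in both lists the shared part was 57.4% and 51.7%. The sites of one list only were weaker and narrower than the shared ones in both lists, and 86.1% and 86.5% of them were called in at least 1 of the other 4 libraries as deposited. They differed in where they lay: chromosomes 19, 17, 16 and 22 held a larger share of the sites of the wild-type SLFN11 list alone, and chromosomes 2, 4 and 8 of those of the vector list alone. Of the wild-type SLFN11 intervals 3197 were shared (57.5%, 56.2 to 58.8) and 2365 were in that list only (42.5%). Of the vector intervals 3206 were shared (55.2%, 53.9 to 56.5) and 2600 were in that list only (44.8%). Shared intervals mostly met one another singly, since 3173 wild-type SLFN11 intervals met exactly 1 vector interval and 24 met 2. Counted in bases, 0.738 Mb was common to both lists, which is 47.5% of the wild-type SLFN11 and 46.3% of the vector covered sequence.

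Most one-list sites had no site of the other list within 10 kb, and the distance that sparse lists would give by placement alone was not computed. Of the 2365 wild-type SLFN11 one-list sites, 204 (8.63%, 7.52 to 9.83) had a vector interval within 1 kb and 328 (13.9%) within 10 kb. Of the 2600 vector one-list sites, 207 (7.96%, 6.95 to 9.07) had a wild-type SLFN11 interval within 1 kb and 351 (13.5%) within 10 kb. The median distance to the nearest interval of the other list was 90.9 kb and 82.9 kb.

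Strength and width separated one-list from shared sites in the same way on both sides. The authors' fold is the enrichment of the summit over its local background, and it ranks sites within a list. In the wild-type SLFN11 list it had a median of 5.39 (5.33 to 5.47) at one-list sites and 6.33 (6.28 to 6.40) at shared sites. In the vector list the medians were 5.67 (5.63 to 5.72) and 6.54 (6.50 to 6.60). Median width was 200 bp (197 to 204) at wild-type SLFN11 one-list sites and 279 bp (274 to 287) at shared sites, against 194 bp (189 to 198) and 278 bp (273 to 284) in the vector list. The one-list summits rested on a median of 7 fragments in both lists, and the shared summits on 10.

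Few of the strongest sites were private to a library. Among the 10% of the wild-type SLFN11 list with the lowest fold, 69.3% (65.3 to 73.1) of intervals had no vector counterpart, and among the 10% with the highest fold 12.03% (9.44 to 15.02). In the vector list these shares were 58.7% (54.6 to 62.7) and 11.9% (9.36 to 14.8), with the highest, 63.0%, in the next 10% from the bottom. Of the 56 intervals in the top 1% of the wild-type SLFN11 list 2 were private, and of the 59 in the vector list 1. By width the private share went from 62.5% in the narrowest to 12.6% in the widest 10% of the wild-type SLFN11 list, and from 68.5% to 12.4% in the vector list. Wider intervals meet the overlap rule of 1 bp more easily, and the part of the rule in this trend was not tested. Intervals of 150 bp or less made up 18.1% of wild-type SLFN11 and 25.9% of vector one-list sites, against 8.20% and 10.9% of shared sites, beside narrowest intervals of 128 and 116 bp. A fold of 10 or more was reached by 6 wild-type SLFN11 one-list sites (0.254%) and 130 shared sites (4.07%), and by 16 vector one-list sites (0.615%) and 203 shared sites (6.33%). More than 1 summit within an interval was found at 1.06% of wild-type SLFN11 and 0.731% of vector one-list sites, against 9.82% and 10.2% of shared sites. Many one-list sites lay close to the end of the lists at a −log10 q of 2: 29.5% (27.6 to 31.4) of the wild-type SLFN11 and 20.1% (18.6 to 21.7) of the vector one-list sites were under 3, against 10.8% and 10.4% of shared sites.

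**Figure D1:**
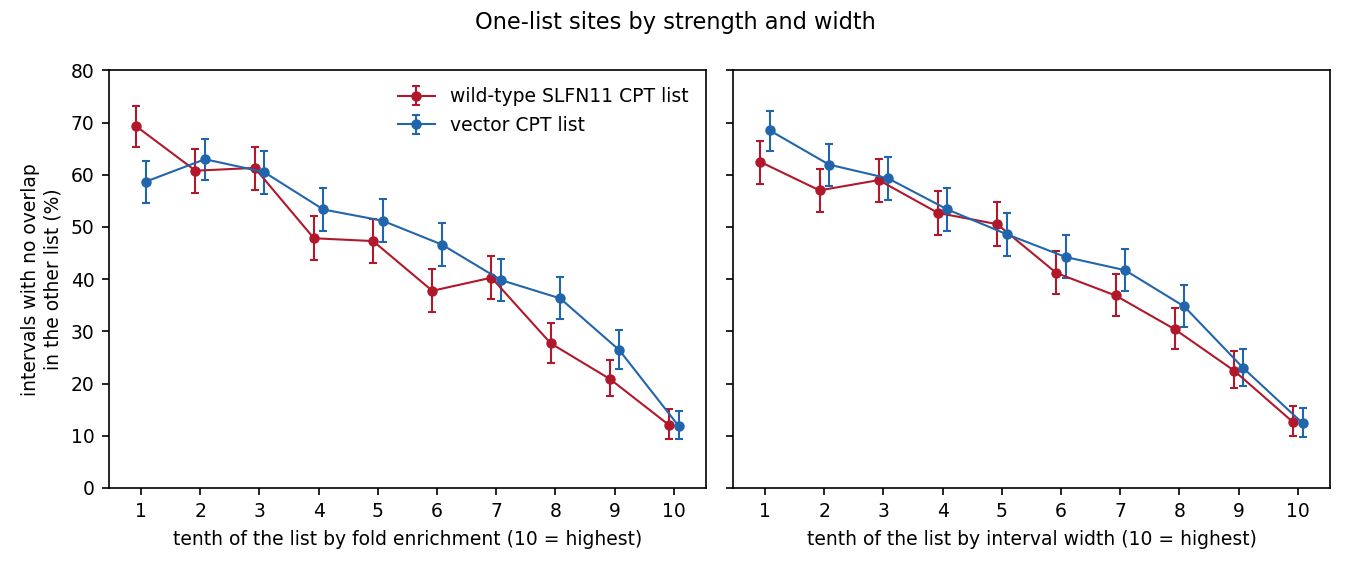
Share of intervals with no overlap in the other list (%), for steps of 10% of each list ranked by the authors' fold enrichment (left) and by interval width (right), with exact 95% binomial intervals. By fold the wild-type SLFN11 list goes from 69.3% in its lowest to 12.03% in its highest step, and the vector list from 58.7%, and 63.0% in the second step, to 11.9%.

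The one-list sites named here for fold or width were each called in at least 2 of the other 4 libraries. Positions are 1-based on hg19, and what lies there was not analysed here. Among wild-type SLFN11 one-list sites wider than 150 bp, the highest fold was 11.9 at chr6:61914140-61914362, with a pileup of 22 fragments. This site was called at fold 6.97 in wild-type SLFN11 with DMSO, 4.93 in E669Q with DMSO and 8.66 in E669Q with CPT, and in neither vector library. The second, at chr7:74508842-74509001, had a fold of 10.9 and was called in vector with DMSO at 8.24. The third, at chr12:56211504-56211735, had a fold of 10.6, against 5.68 in vector with DMSO, 9.02 in wild-type SLFN11 with DMSO, 7.51 in E669Q with DMSO and 8.74 in E669Q with CPT. Next were chr2:89875094-89875374 (fold 10.2), chr6:164461181-164461345 (9.90), chr6:3259037-3259258 (9.82), chr1:101491328-101491587 (9.68) and chr9:124132634-124132808 (9.39). Those at 9.90 and 10.2 were in no vector library, and the other 3 were in vector with DMSO at fold 5.30 to 6.34.

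The strongest one-list site of the vector list wider than 150 bp was at chr11:93517091-93517425, with a fold of 11.05 and a pileup of 16 fragments. Wild-type SLFN11 cells with DMSO had the same site at fold 6.84, and vector cells with DMSO at 7.02. It was followed by chr2:12417656-12417954 (fold 10.7), chr1:220080233-220080667 (10.5), chr5:32444545-32444947 (10.4), chr4:169931385-169931796 (10.4), chr9:70856673-70856872 (10.3), chr4:154449957-154450116 (10.3) and chr5:43416417-43416705 (10.2). All 8 were called in wild-type SLFN11 cells with DMSO, at fold 5.29 to 10.5, and in vector cells with DMSO, at 4.86 to 7.63. The site on chromosome 4 that starts at 169931385 was also called in E669Q cells with CPT, at 12.8.

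Sites of 150 bp or less held the highest folds of both one-list sets. The wild-type SLFN11 list had chr2:191402657-191402788 at fold 22.8, a site called in all other libraries except vector with CPT, at 18.3 in vector with DMSO and 25.9 to 29.3 in the others. It was followed by chr10:103124596-103124724 (13.9), chr4:79860546-79860675 (8.98), chr10:102672572-102672703 (8.90) and chr16:30076843-30076981 (8.68), none of which was in a vector library. The vector list had chr4:163342579-163342705 at 32.7, a site called in all 3 other libraries of the SLFN11 lines at 29.9 to 34.8 and absent from vector with DMSO. Then came chr11:10530437-10530562 (10.8), chr11:35052375-35052523 (10.1), chr3:10052827-10052966 (9.74) and chr1:200992782-200992928 (9.50). The first site on chromosome 4 and that at chr11:10530437 were 127 and 126 bp wide. The narrowest interval was 128 bp in wild-type SLFN11 with CPT and in vector with DMSO, the lists in which neither site was called. The narrowest was 109, 118 and 102 bp in the lists that held them. The part of this width limit in their absence was not tested.

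The widest one-list sites were broad regions with folds of 5.08 to 8.02 that other libraries also held. In the wild-type SLFN11 list they were chr6:31587913-31588676 (764 bp, fold 6.69), chr9:130829699-130830460 (762 bp, 5.10), chr22:21983710-21984462 (753 bp, 5.08), chr5:180237054-180237764 (711 bp, 5.71) and chr11:695084-695786 (703 bp, 6.34). Of these 5, 4 were in all other 4 libraries and that on chromosome 9 was in the 3 other libraries of the SLFN11 lines. In the vector list they were chr11:105386311-105387263 (953 bp, fold 5.54), chr7:80790797-80791709 (913 bp, 6.65), chr10:65281011-65281757 (747 bp, 6.15), chr5:109024864-109025582 (719 bp, 6.61) and chr6:170101723-170102433 (711 bp, 8.02). That on chromosome 10 was in 3 of the other 4 libraries and the rest in all 4. Wild-type SLFN11 cells with DMSO had the site on chromosome 7 at fold 12.7.

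Many one-list sites of either list were called in the other libraries, including those of the other line. Of the wild-type SLFN11 one-list sites 70.3% (68.4 to 72.2) were in the list of the same line with DMSO, 51.97% (49.9 to 53.997) in E669Q with DMSO, 70.5% (68.6 to 72.3) in E669Q with CPT and 27.4% (25.7 to 29.3) in vector with DMSO. The vector one-list sites were found about as often in the 2 deepest libraries, less often in E669Q with DMSO and more often in vector with DMSO: 69.9% (68.1 to 71.6) were in wild-type SLFN11 with DMSO, 47.2% (45.2 to 49.1) in E669Q with DMSO, 70.5% (68.7 to 72.2) in E669Q with CPT and 35.5% (33.7 to 37.4) in vector with DMSO. The relative depth of these libraries was 1.72, 1.33, 2.22 and 1.00 in that order. With each of the other lists cut to its 5246 strongest intervals, the length of the shortest list, the wild-type SLFN11 one-list sites were found at 34.04% in their own line with DMSO, 34.9% and 33.9% in E669Q with DMSO and CPT, and 27.4% in vector with DMSO. The vector one-list sites were then found at 37.8%, 31.5%, 33.9% and 35.5%. Shared sites were found more often: as deposited 95.7% were in wild-type SLFN11 with DMSO, and at equal length 78.0%, while 70.8% were in vector with DMSO, the shortest list.

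**Figure D2:**
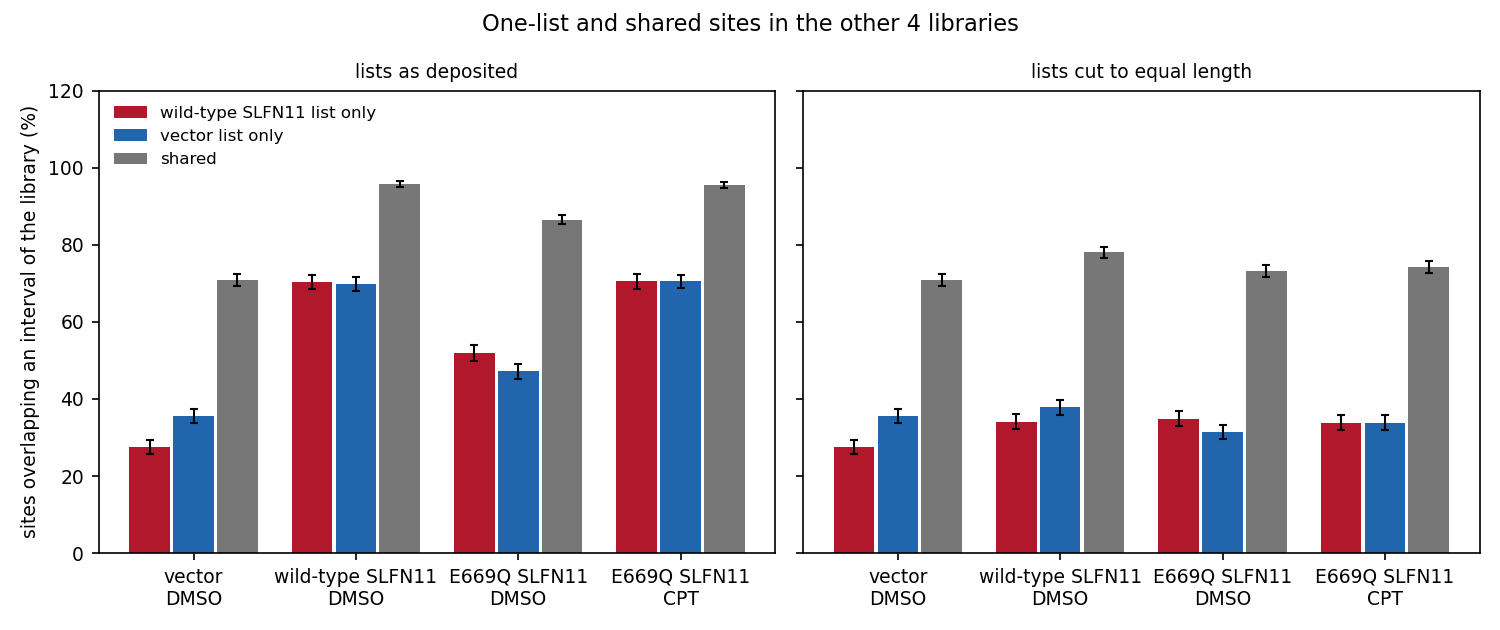
Share of sites (%) that overlapped an interval of each of the 4 libraries outside the comparison, with the lists as deposited (left) and cut to equal length (right). Bars are wild-type SLFN11 one-list, vector one-list and shared sites with exact 95% binomial intervals. Both one-list sets reach 69.9% to 70.5% in the 2 deepest libraries as deposited, and 33.9% to 37.8% there at equal length.

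The one-list sites of wild-type SLFN11 followed the line more often than those of vector in the lists as deposited, and by less at equal length. Sites called with DMSO in the own line and not in the other line numbered 1091 of 2365 (46.1%, 44.1 to 48.2) for wild-type SLFN11 and 97 of 2600 (3.73%, 3.04 to 4.53) for vector. The DMSO lists held 11651 and 5246 intervals. With both at 5246 intervals the counts were 442 (18.7%, 17.1 to 20.3) and 378 (14.5%, 13.2 to 15.95). Found with DMSO in the other line alone were 286 (12.1%) and 438 (16.8%) at that length. In the lists as deposited, 541 wild-type SLFN11 one-list sites (22.9%) were also called in each of the 3 remaining libraries that carry SLFN11. They were not called with or without CPT in vector cells, and 14.8% (11.9 to 18.1) of them lay on chromosome 19. In the vector list 951 one-list sites (36.6%) were in those same 3 libraries as deposited, and 2.21% (1.37 to 3.36) lay on chromosome 19. Wild-type SLFN11 after CPT was the one library with SLFN11 in which they were not called, and 524 of them were also in vector with DMSO. The 3 libraries had a relative depth of 1.72, 1.33 and 2.22, against 1.09 in wild-type SLFN11 with CPT. Vector had 1.09 with CPT and 1.00 with DMSO. These 2 groups were not counted at equal length, and the part of depth in them was not tested.

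One-list sites that none of the other 4 libraries held, with the lists as deposited, had the lowest median fold and width. They numbered 329 (13.9%, 12.5 to 15.4) in the wild-type SLFN11 list and 351 (13.5%, 12.2 to 14.9) in the vector list, with a median fold of 4.601 and 5.20 and a median width of 173 and 170 bp. This number depends on the length of the other lists: with each cut to 5246 intervals, 63.7% of wild-type SLFN11 and 66.4% of vector one-list sites were found in at least 1 of them, against 86.1% and 86.5% as deposited. One-list sites found in all other 4 libraries numbered 425 (18.0%) and 524 (20.2%), with a median fold of 5.91 and 6.35 and a median width of 237 and 248 bp.

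At sites that both lists held one-to-one, 3143 in number, the libraries looked alike in size and loosely alike in rank. Median width was 279 bp in both, the wild-type SLFN11 interval was the wider one at 1562 sites and the vector interval at 1559. Summits lay a median of 63 bp apart. The pileup was recovered at 3119 of these sites, with a median of 10 fragments in each library. It was higher in wild-type SLFN11 at 1349, higher in vector at 1427 and equal at 343, and differed by 2-fold or more at 86 sites towards wild-type SLFN11 and 151 towards vector. Across these sites the rank correlation between the libraries was 0.35 for fold, 0.54 for pileup and 0.37 for width. Sites are not independent replicates, and most folds lay within a narrow range. Of 484 shared sites in the top 10% of the wild-type SLFN11 list, 208 (43.0%) were also in the top 10% of the vector list, which is 41.4% of the 503 there.

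**Figure D3:**
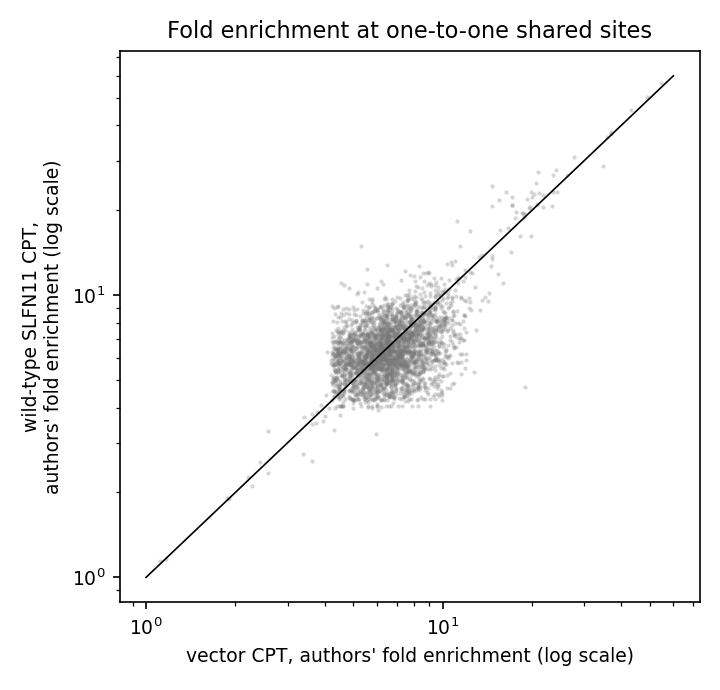
Authors' fold enrichment at the 3143 one-to-one shared sites in the vector (x) and wild-type SLFN11 (y) libraries after CPT, both on log scales; each point is a site and the line marks equal values. The cloud of ordinary sites is wide (rank correlation 0.35), and the 8 sites wider than 150 bp that are named in the text lie near the line.

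Among shared sites wider than 150 bp, the 8 that ranked highest by fold in both lists had similar folds in the libraries, with the largest gap on chromosome 1. chr17:22020540-22020910 had 50.4 in wild-type SLFN11 and 48.9 in vector, and its summits lay 2 bp apart. chr13:110076474-110076687 had 37.9 and 36.9, chr21:10492884-10493039 had 37.5 and 37.1, and chr9:66970992-66971557 had 36.3 and 35.7. chr1:77436903-77437106 was lower in wild-type SLFN11 (28.8) than in vector (34.7), with pileups of 66 and 102 fragments. chr5:93905088-93905242 had 30.8 and 27.7, chr19:27731860-27732802 had 26.7 and 26.2, and chr11:85195011-85195238 had 27.8 and 24.1. These sites were chosen for high fold in both lists, so their likeness is a description. No pileup was recovered for those on chromosomes 17, 13, 21, 9 and 19.

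The one-list sets parted by chromosome. Chromosome 19, the human chromosome with the most genes per length, held 214 (9.05%, 7.92 to 10.3) of the wild-type SLFN11 one-list sites and 47 (1.81%, 1.33 to 2.40) of those of vector, with 3.75% of shared sites in between. Chromosome 17 held 6.38% (5.43 to 7.45) and 1.62% (1.17 to 2.18), with 2.28% of shared sites. Chromosome 16 held 5.29% (4.42 to 6.27) and 1.81% (1.33 to 2.40), and chromosome 22 held 1.65% (1.18 to 2.25) and 0.577% (0.323 to 0.9498). These 4 chromosomes together held 22.4% (20.7 to 24.1) of wild-type SLFN11 one-list, 10.07% (9.05 to 11.2) of shared and 5.81% (4.94 to 6.78) of vector one-list sites. They were the only ones of 23, chromosomes Y and M left out, whose difference towards wild-type SLFN11 had a 95% interval above 0.

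Chromosomes 2, 4 and 8 went the other way. Chromosome 2 held 7.15% (6.14 to 8.26) of wild-type SLFN11 and 11.5% (10.3 to 12.7) of vector one-list sites, a difference of −4.32 points (−5.92 to −2.70). Chromosome 4 held 3.59% (2.88 to 4.43) and 6.38% (5.48 to 7.39), and chromosome 8 held 3.72% (2.99 to 4.56) and 6% (5.12 to 6.98). Chromosomes 1, 3, 6, 7 and 13 also had intervals below 0, which makes 8 in all, with no adjustment for the 23 chromosomes looked at. The shares of each set add up to a whole, so a larger share on some chromosomes lowers the shares on the others. The 4 chromosomes of the paragraph above together held 22.4% of wild-type SLFN11 and 5.81% of vector one-list sites. The part of this in the 8 differences below 0 was not tested. Read alone, such a difference does not show an excess of vector sites on that chromosome. Chromosome 11, with 9.66 protein-coding genes per Mb against 9.46 on chromosome 16, held 5.03% and 5.54%, a difference of −0.507 points with an interval that includes 0 (−1.75 to 0.750).

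Chromosomes 12 and 15 had few shared sites from either side. On chromosome 15, 57 of 81 wild-type SLFN11 intervals (70.4%) and 44 of 68 vector intervals (64.7%) had no counterpart, and on chromosome 12, 61.6% and 58.0%. On chromosome 19 the wild-type SLFN11 list was mostly private (64.1%, 214 of 334 intervals) and the vector list mostly shared (28.0% private, 47 of 168). On chromosome 17 these shares were 67.4% and 36.2%, and on chromosome 16 59.2% and 35.3%.

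**Figure D4:**
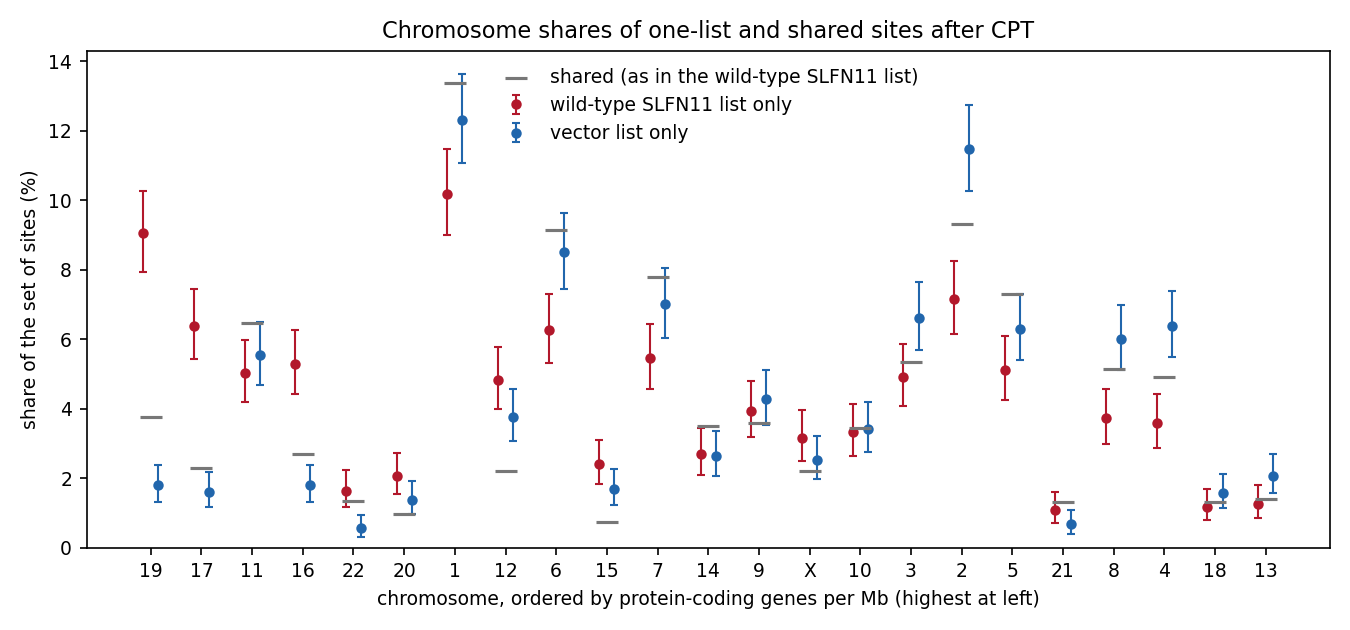
Share (%) of wild-type SLFN11 one-list sites, vector one-list sites (points with exact 95% binomial intervals) and shared sites (dashes) on each chromosome, ordered by protein-coding genes per Mb. On chromosome 19 the points stand at 9.05% and 1.81%, and on chromosome 2 at 7.15% and 11.5%.

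Along chromosome 19 each 10 Mb segment held more wild-type SLFN11 than vector one-list sites, with few of either between 20 and 30 Mb. Between 0 and 10 Mb there were 53 wild-type SLFN11 and 11 vector one-list sites, between 10 and 20 Mb 50 and 13, and between 20 and 30 Mb 8 and 3. The counts were 17 and 6 between 30 and 40 Mb, 45 and 4 between 40 and 50 Mb, and 41 and 10 from 50 Mb on. The longest row of wild-type SLFN11 one-list sites with no shared site and no vector site between them held 11 sites, at chr19:7571293-8509806. The next held 10 sites, at chr19:50380647-51897757. For vector the longest row held 8 sites, at chr2:216176556-218012777.

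Elsewhere the densest single megabases of wild-type SLFN11 one-list sites were chromosome 16 between 67 and 68 Mb, with 11 against 0 in the vector list, chromosome 11 between 0 and 1 Mb, with 10 against 3, and chromosome 16 between 2 and 3 Mb, with 10 against 2. Chromosome 19 between 41 and 42 Mb equalled them, also with 10 against 2. The densest of the vector list were chromosome 2 between 12 and 13 Mb, with 9 against 1, chromosome 1 between 65 and 66 Mb, with 8 against 3, and chromosome 6 between 26 and 27 Mb, with 8 against 7. In the last of these both lists had private sites side by side. Of the 1 Mb segments with any site, 774 held one-list sites of both lists, 420 of wild-type SLFN11 alone and 609 of vector alone.

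The shift on these chromosomes was also present at the sites that both libraries shared, in pileup, width and local background but hardly in fold. At the 119 one-to-one shared sites of chromosome 19 the median width was 301 bp (271 to 339) in wild-type SLFN11 and 228 bp (203 to 253) in vector, and the wild-type SLFN11 interval was the wider at 83 and the narrower at 35. The median pileup there was 11 against 8.5 fragments, higher in wild-type SLFN11 at 86 of the 118 sites recovered and lower at 21. The local background was 98.95 against 62.02 fragments per 10 kb, higher in wild-type SLFN11 at 115 of 118 sites. The median fold was 6.02 against 5.99.

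Chromosomes 17 and 16 resembled chromosome 19. On chromosome 17 median width was 293 bp (267 to 322) and 212 bp (185 to 250) at 72 shared sites, the pileup 10 and 8 fragments, and the background 85.96 and 54.02 fragments per 10 kb. On chromosome 16 the widths were 260 bp (222 to 317) and 211.5 bp (186 to 268), with a background of 87.96 and 60.02 fragments per 10 kb. On chromosome 22 the background was 229.9 and 154.1 fragments per 10 kb, higher in wild-type SLFN11 at all 43 shared sites. At the 2823 shared sites outside these 4 chromosomes the widths were 278 bp (272 to 284) and 284 bp (278 to 292), and the background 79.96 and 76.03 fragments per 10 kb. The part of the local background in the split of one-list sites was not tested.

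Over 23 chromosomes the share of the wild-type SLFN11 list relative to that of the vector list went with gene density. On the log2 scale this share ratio was 1.05 on chromosome 19, 1.01 on 17, 0.73 on 16, 0.56 on 22 and 0.31 on 15, and it was −0.36 on chromosome 4, −0.32 on 13 and −0.29 on chromosomes 2 and 8. Its correlation with protein-coding genes per Mb was r = 0.81 and rho = 0.76 (n = 23 chromosomes), and r = 0.81 and rho = 0.72 without chromosome 19. With the background shift at shared sites it was r = 0.79 and rho = 0.74. That shift, taken relative to all shared sites on the log2 scale, was 0.53 on chromosomes 19 and 22, 0.41 on 20, 0.38 on 17, 0.26 on 16 and −0.22 on 4. Chromosome 18 departed from the relation, with a background shift of 0.27 and a share ratio of −0.22. All points come from the same pair of libraries, and chromosomes are not replicates.

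Chromosomes 19, 17 and 16 also had the highest share ratios without CPT. The libraries of wild-type SLFN11 and vector with DMSO are other samples, at a relative depth of 1.72 and 1.00. Their log2 share ratio was 1.01 on chromosome 19, 0.84 on 17, 0.75 on 16 and −0.21 on 4. Over 23 chromosomes the ratios with CPT and with DMSO had the same sign on 19 and correlated at r = 0.92 and rho = 0.87. Chromosome 22 differed most among those above, with 0.56 with CPT and 0.11 with DMSO. No test of a difference between the 2 treatments was made. E669Q SLFN11 cells with CPT, at a relative depth of 2.22, had a log2 share ratio over vector with CPT of 0.97 on chromosome 19. It was 0.72 on 17, 0.53 on 16 and 0.43 on 22, with its highest value, 1.25, on chromosome 15. On chromosome 4 it was 0.14, against −0.36 for wild-type SLFN11 with CPT.

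**Figure D5:**
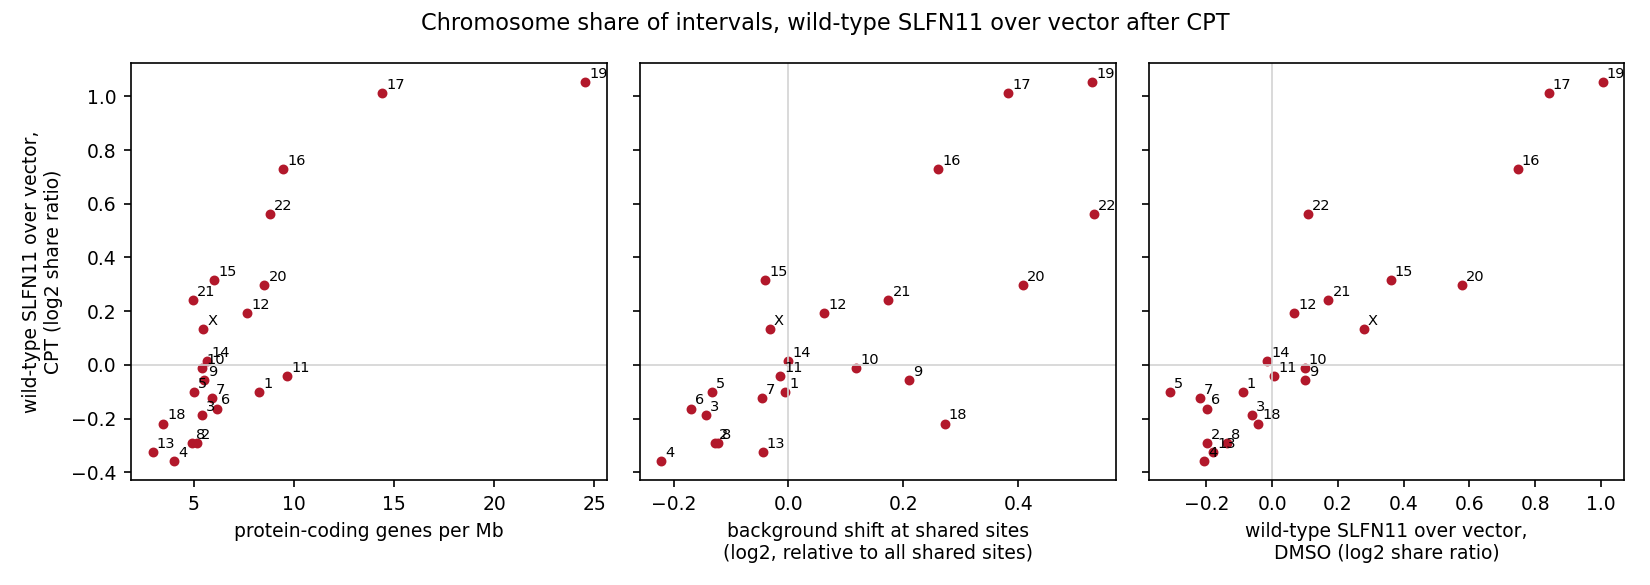
Log2 ratio of chromosome shares, wild-type SLFN11 list over vector list after CPT (y), against protein-coding genes per Mb (left), the log2 background shift at shared sites (middle) and the same ratio with DMSO (right); each point is one of 23 chromosomes, labelled by name. Chromosomes 19, 17 and 16 are highest on the y axis in each panel, at 1.05, 1.01 and 0.73.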

How the data were processed

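The data are 1 ATAC-seq peak list per library, 6 libraries in all, with no pooling. Per the submitters' processing notes, the tools were MACS2 2.1.2, Picard 2.9.2, SAMtools 1.8, Bowtie2 2.2.6 and Trimmomatic 0.39, and the build hg19. Their roles and settings, any shift of reads for the transposase and read numbers are not given in the sources used here. Each summit has, as deposited by its authors, a fold enrichment, which is a ratio over local background, a −log10 p-value, a −log10 q-value and a score. In every entry the deposited score equals 10 times the −log10 q-value with decimals dropped, and the lowest deposited −log10 q-value is 2.00 to 2.01, so weaker sites are not seen. The summit position deposited by the authors was used for distances between summits.

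Summits of 1 interval were joined, with the highest fold kept. A pileup in whole fragments at the summit and its local background were solved from fold and −log10 p, taking MACS2 to add 1 to both, and were recovered within 0.001 for 98.7% to 98.8% of entries in the 2 lists. Background was expressed in fragments per 10 kb, from the step between its values. Its lowest value gave relative depth. Gene density is the count of protein-coding genes that a RefSeq table of GRCh38.p14 lists on a chromosome, divided by the largest peak end in the files. The overlap step was run on the wild-type SLFN11 CPT list against a copy of it with a random part moved off its chromosomes. It misassigned 0 of 5562 intervals, but partial overlaps did not occur in that check. Pileups were recovered for 500 of 500 simulated entries per list. Those entries were made with the formula that the step inverts, so the check cannot tell whether MACS2 used that formula.

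Intervals, all at 95%, are exact Clopper-Pearson for shares, Newcombe for differences and from order statistics for medians. They treat intervals as independent. The comparison, its sites and lists were chosen with earlier results of these data known. Regions named are, per list, the 8 one-list sites of highest fold wider than 150 bp, the 5 of 150 bp or less, the 5 widest, the 8 shared sites wider than 150 bp whose lower rank by fold is highest, and the 3 megabases with the most one-list sites. A chromosome 19 megabase tied with them is given too. The grouping of chromosomes 16, 17, 19 and 22, the attention to chromosomes 12 and 15, the rows of one-list sites, the lists cut to 5246 intervals and the shared sites by chromosome were chosen after seeing the data. Promoter shares, gene lists and markers were planned and are not analysed here. Computation used scipy 1.17.1, pandas 2.3.3 and numpy 2.4.6 under Python 3.11.15, with matplotlib 3.10.9 for plots.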

Additional observations from a re-analysis of the deposited data

Results flagged for a closer look

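The number of intervals of wild-type SLFN11 over vector went opposite ways in the 2 treatments. It was 0.958 with CPT (5562 over 5806) and 2.22 with DMSO (11651 over 5246). The relative depth was 1.09 and 1.09 with CPT, and 1.72 and 1.00 with DMSO. With single libraries this difference was not tested, nor was the part of depth in it.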

How the results depend on the processing

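No replicate could be left out, and no paired analysis was possible because each group is 1 library. The planned window for promoters was not run. Values below are wild-type SLFN11 first and vector second. Chromosome 19 held more of the wild-type SLFN11 than of the vector one-list sites under each of the 8 settings that changed the sites. The shared sites were no longer the larger part of a list with a reciprocal overlap or summits, and of the vector list at a −log10 q of at least 5 in both lists. With a reciprocal overlap of 50%, 39.5% and 37.8% of each list was shared, chromosome 19 held 7.51% and 2.41% of one-list sites, and chromosomes 16, 17, 19 and 22 held 18.9% and 7.17%. One-list sites then had a median width of 211 and 202 bp and a median fold of 5.61 and 5.79, and 67.4% and 65.9% were in any of the other 4 libraries. With summits within 150 bp the shared part was 47.7% and 45.7%, the 4 chromosomes held 20.0% of wild-type SLFN11 one-list sites, the widths were 216 and 207 bp, the folds 5.53 and 5.75, and 79.3% and 80.8% were found elsewhere. At a −log10 q of at least 5 in both lists there were 1163 and 1605 one-list sites and 54.1% and 46.03% was shared. The 4 chromosomes then held 19.8% of wild-type SLFN11 one-list sites, the widths were 271 and 267 bp, the folds 6.81 and 6.97, and 98.0% and 95.5% were found elsewhere. With that limit on the own list alone, 647 and 933 sites were left, 74.4% and 68.6% was shared, the widths were 248 and 241 bp, the folds 6.75 and 6.85, and 96.6% and 92.5% were found elsewhere. Vector one-list sites then lay at 0.965% on chromosome 19 and 3.75% on the 4 chromosomes. At a fold of at least 5 the shared part of the vector list was 51.7%, the widths were 232 and 217 bp, the folds 6.01 and 6.13, and 94.1% and 90.3% were found elsewhere. Cutting the vector list to 5562 intervals gave 56.005% of the wild-type SLFN11 list shared and a vector fold of 5.79. Without intervals of 150 bp or less, 54.3% of the wild-type SLFN11 list was shared, the widths were 223 and 226 bp, the folds 5.66 and 5.89, and 89.8% and 89.9% were found elsewhere. With the other 4 lists cut to 5246 intervals, 63.7% and 66.4% were found elsewhere. Leaving out chromosomes M and Y, a setting added after seeing the data like the one before it, moved none of these beyond its counting interval. A stricter limit removes weak sites, and a limit on both lists also makes one-list sites of shared ones whose counterpart it removes. The part of each in the rise of fold and width was not tested. The causes of the other shifts were not tested. The median one-list summit rests on 7 fragments, which limits the precision of its fold.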
